A study of Mus musculus with 58 samples.

Results

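The chaperones that fold proteins in the endoplasmic reticulum (ER) of the mouse retina were followed over 6 time points of a light/dark cycle. The 10 transcripts were chosen by symbol: Hspa5, Hsp90b1, Calr, Canx, Creld2, Manf, Sdf2l1, Dnajb11, Dnajc3 and Hyou1. All 10 were present among the 52459 symbols of the count table, and all 10 passed the expression filter that 19120 genes passed, a median above 4 normalized read counts over the libraries. RNA was measured by ribosome-depleted sequencing of single retinas from 4-month-old males kept in 12 h of light and 12 h of dark. Diabetic mice were heterozygous for Ins2Akita, a mutation of insulin 2 that gives misfolded insulin, loss of pancreatic beta cells and hyperglycemia, and controls were male littermates without it, labelled C57/BL/6. The mutation is carried in every cell, but insulin 2 is made mainly in beta cells. Control retinas gave 30 libraries (5, 6, 5, 5, 5 and 4 at ZT1, ZT5, ZT9, ZT13, ZT17 and ZT21) and diabetic retinas gave 28 (5, 5, 5, 4, 4 and 5), with ZT (zeitgeber time) given in hours from lights on. Retinas of the night points were taken under dim red light.

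Proteins that are secreted or sit in membranes are folded in the ER. Hspa5 (BiP, an Hsp70) binds unfolded chains with the help of DnaJ cochaperones, Hsp90b1 (GRP94) takes over selected clients, and the lectins Calr and Canx hold glycoproteins by their sugars. When unfolded protein accumulates, the sensors Atf6, Ern1 and Eif2ak3 start the unfolded protein response, in which cleaved Atf6 and spliced Xbp1 raise chaperone genes through the ER stress response element (ERSE). In the retina, rods send large amounts of rhodopsin through the ER for the outer segments that they renew every day.

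The promoters of the chaperones are shown first because most of them share this element. In RefSeq promoters (GRCm38.p6, 250 bases before to 50 after the annotated start), 8 of the 10 genes had an entry, and Manf and Hyou1 were not among them. The ERSE letters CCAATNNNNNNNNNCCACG, searched on both strands, were found in 6 of these 8 genes against 37 of the 27025 genes with a promoter, which is 0.137%. The related ERSE-II (ATTGG, 1 base of any kind and CCACG) was found in Dnajb11 and in 0.0444% of all genes, and the core TGACGTGG of the Xbp1 element in none of the 8 and in 0.714% of all genes. The shorter CCACG, which is part of both ERSE forms, was in 8 of 8 and in 35.5% of all genes, so Sdf2l1 had this piece alone. In the lines below each sequence runs 5′ to 3′ along the gene's own strand, 49 bases long, with the ERSE in capitals, and these capitals begin with CGTGG where the element lies on the opposite strand.
Hspa5 (chr2:34772010-34772058, + strand): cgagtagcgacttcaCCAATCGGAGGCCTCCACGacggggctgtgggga
Calr (chr8:84847060-84847108, − strand): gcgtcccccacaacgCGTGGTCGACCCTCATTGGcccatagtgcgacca
Hsp90b1, distal (chr10:86705623-86705671, − strand): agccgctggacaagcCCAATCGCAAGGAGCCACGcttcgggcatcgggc
Hsp90b1, proximal (chr10:86705518-86705566, − strand): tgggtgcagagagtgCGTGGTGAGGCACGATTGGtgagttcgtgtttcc
Canx (chr11:50325785-50325833, − strand): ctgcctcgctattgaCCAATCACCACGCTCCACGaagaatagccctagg
Dnajc3 (chr14:118937812-118937860, + strand): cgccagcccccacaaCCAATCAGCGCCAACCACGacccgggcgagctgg
Creld2 (chr15:88819505-88819553, + strand): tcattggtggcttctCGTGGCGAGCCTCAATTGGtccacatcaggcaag

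The 7 elements lay between 212 and 47 bases before the start, nearest in Hspa5 and farthest in the distal copy of Hsp90b1. A match of letters is a description of the sequence, not of a bound site.

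**Figure D1:**
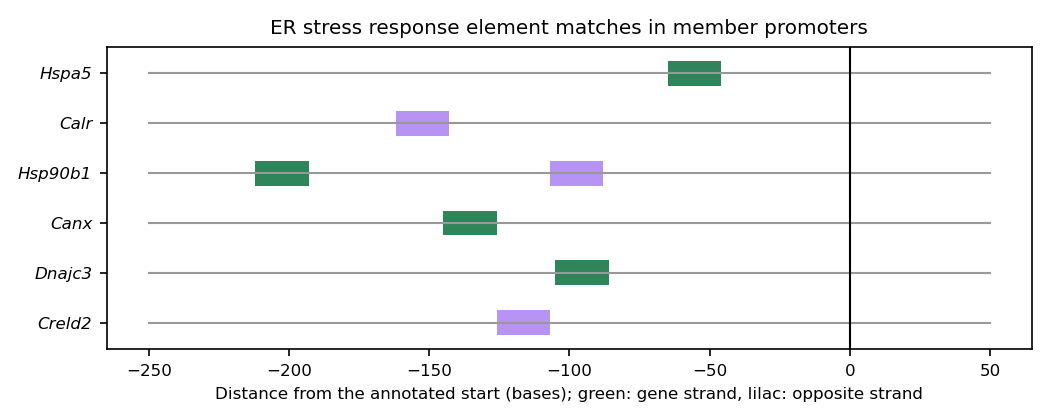
Position of the ER stress response element letters in the promoters of the 6 chaperone genes that hold them, as distance in bases from the annotated start (0). Green boxes lie on the gene's strand and lilac boxes on the opposite strand, and all 7 lie between 212 and 47 bases before the start.

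The libraries held 7773117 to 22147398 counted reads, and the lowest raw count of any of the 10 in any library was 16, for Sdf2l1, the member with the largest counting error. The markers of the labelled tissue were present: all 10 rod genes were detected, with a summed level of 559190 to 841179 normalized read counts. Lens transcripts were high in 3 control libraries, of ZT1, ZT17 and ZT21 (32719 to 49041 summed normalized read counts against at most 1253 elsewhere). Of the 17 lens genes 2 were at 0 in all libraries. Results of the 10 chaperones that change without these 3 libraries are marked below. Genes of the other lists were not tested again without them. The trend of counts with GC content also differed between libraries. The chaperones have transcripts of 42.05% (Hsp90b1) to 56.68% (Sdf2l1) GC, so a correction for GC content and length was run, and its counts are given where they differ. In bulk retina, fewer cells of a type and less RNA per cell cannot be told apart.

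Levels between genes were compared per kilobase of exon, with all annotated exons of a gene joined. For Manf these were 3524 bases against 2247 in its longest transcript, so its place in the order depends on this length. Calr was the highest, with 1383 ± 318 normalized read counts per kilobase (SD over the 58 libraries), followed by Canx with 1147 ± 113 and Hsp90b1 with 958 ± 170 on the same scale. Hspa5 had 604 ± 134, Hyou1 246 ± 32.6, Dnajb11 207 ± 20.7, Creld2 163 ± 27.7, Dnajc3 140 ± 11.4, Manf 116 ± 24.1 and Sdf2l1 57.6 ± 18.5 per kilobase. The lectins and the Hsp90 of the ER thus stood above BiP, and the cochaperones and the small secreted factors below it. The genes lie on different chromosomes of GRCm38, except that Sdf2l1 (chr16:17130138-17132383) and Dnajb11 (chr16:22857845-22879634) share chromosome 16, and Manf (chr9:106838312-106891979) and Hyou1 (chr9:44379490-44392369) share chromosome 9. Exons of Hsp90b1 (chr10:86690209-86705509) and of Manf each overlap exons of 3 other genes, on both strands, and because the strand setting of the counting is not given in the sources used here, reads in these overlaps may have been counted for either gene or left out. The other members had no such overlap.

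In control retinas, 8 of the 10 chaperones were rhythmic over 24 h with a peak in the dark, against 12.2% of all genes tested that were rhythmic and 5.96% that were rhythmic with a peak in the dark. The test was edgeR's quasi-likelihood test of a 24 h cosine with Benjamini-Hochberg adjustment over all 19120 genes. The acrophase, the time of the fitted peak, lay between ZT19.1 and ZT22.7 in all 10. A rank test of the study's kind, on unadjusted p, called 10 of 10 rhythmic, against 21.8% of all genes. Its minimum fold was taken between the highest and lowest single library, whereas the study used a fold predicted by its test. Between control group means the highest was 1.17 times the lowest for Canx, 1.21 for Dnajb11 and 1.14 for Dnajc3. Whether these genes would pass with the study's fold was not tested. With the GC and length correction 10 of 10 passed as well, against 15.6%.

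The Hsp70 chaperones Hyou1 and Hspa5 had the smallest adjusted p of the cosine test, closely followed by Calr. In the rank test Calr and Manf came before Hspa5. Hspa5 ranged from 1788, 1946, 2237, 2336 and 2536 normalized read counts in the 5 control retinas of ZT13 to 2724, 3201, 3685, 3803 and 4524 at ZT17. All 5 values at ZT17 exceeded all 5 at ZT13. At ZT5 the 6 control retinas had 2076 to 2471 with a median of 2220, within the range of ZT13. The fitted relative amplitude, the cosine's amplitude as a share of its mean level, was 24.6% ± 4.7 (SE) with an acrophase at ZT20.5 ± 0.70 h (adjusted p = 2.4e-05). Hyou1, a large Hsp70-like nucleotide exchange factor for Hspa5, had 1446 to 1632 at ZT13 and 2119 to 2403 at ZT17 in control retinas, again without overlap. Its relative amplitude was 15.9% ± 2.5 with an acrophase at ZT20.4 ± 0.58 h (adjusted p = 8.1e-06), the smallest adjusted p of the 10.

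The cochaperones differed more among themselves. Sdf2l1, a partner of ER DnaJ proteins that holds clients soluble, had the largest relative amplitude of the 10, 30.5% ± 7.6, and the lowest level (adjusted p = 0.0023). Its control values were 29.1 to 54.5 normalized read counts at ZT5 and 67.1, 103, 107, 109 and 112 at ZT17, so the group means differed 2.22-fold between these time points. Dnajb11 (ERdj3), which feeds clients to Hspa5, had a relative amplitude of 7.57% ± 1.88 (adjusted p = 0.039), and it lost its call in 12 of the 58 fits with 1 library left out (highest adjusted p = 0.089). Dnajc3 (P58IPK), a cochaperone of Hspa5 also known as an inhibitor of eIF2α kinases, had 6.70% ± 1.68 and did not pass (adjusted p = 0.057). It passed with the GC and length correction (adjusted p = 0.0011) and in DESeq2 (adjusted p = 0.031). It also passed in the rank test, where the fold was taken between single libraries.

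Of the Hsp90 and lectin chaperones, Hsp90b1 had a relative amplitude of 19.2% ± 3.8 and a later acrophase, ZT22.4 ± 0.71 h (adjusted p = 9.9e-05). Its control values split at ZT17 into 3104 and 3335 against 5054, 5156 and 5345 normalized read counts, which gave it the widest spread there, 4399 ± 1085 (SD, n = 5). The low pair, replicates 3 and 1, also differed from the other 3 libraries in the correlation across genes between GC content and log2 CPM with group means removed (0.64 and 0.45 against -0.48 to -0.35) and in the share of mitochondrial reads (0.675% and 0.998% against 1.2% to 1.9%). Over the 58 libraries, with group means removed, Hsp90b1 had a Pearson correlation of -0.58 with this GC trend. The part of GC trend and mitochondrial share in the split was not tested. Calr had 24.2% ± 5.0 with an acrophase at ZT20.3 ± 0.75 h (adjusted p = 3.2e-05). Canx, the membrane-bound lectin, had 6.18% ± 2.47 and did not pass (adjusted p = 0.19), although it did with the GC and length correction (adjusted p = 0.0040). Canx was thus the flattest of the high-level members as counted.

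The small ER factors Manf and Creld2, which are retained in the ER and in part secreted, also peaked in the dark. Manf had a relative amplitude of 23.0% ± 4.4 with an acrophase at ZT19.4 ± 0.73 h (adjusted p = 5.6e-05). The 5 control values of Manf at ZT17 lay close together, between 584 and 632 normalized read counts, and above every other library of either genotype. Creld2, a protein disulfide isomerase-like factor, had 14.4% ± 4.1 with an acrophase at ZT19.6 ± 1.1 h (adjusted p = 0.0067).

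**Figure D2:**
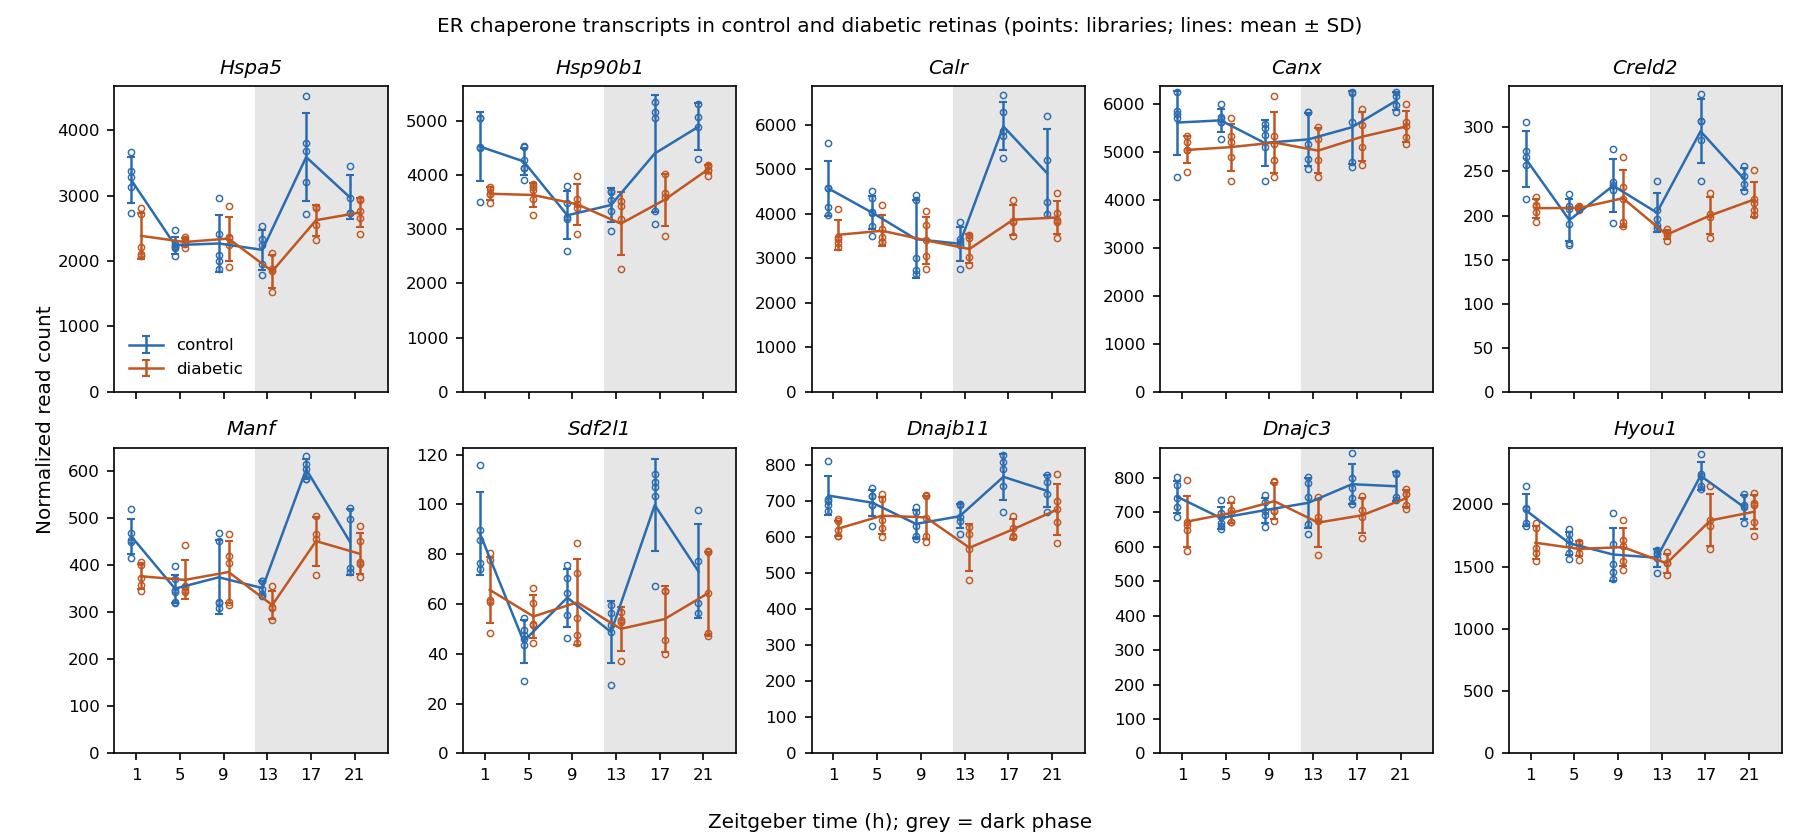
Normalized read count (y axis, from 0) of the 10 ER chaperones by zeitgeber time (x axis, h) in control (blue) and diabetic (orange) retinas, with 1 circle for each library and lines for the mean ± SD. Control values rise between ZT13 and ZT17 for Hspa5, Calr, Creld2, Manf, Sdf2l1 and Hyou1, and the diabetic values at ZT17 lie lower in mean for all 10.

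The steps between neighbouring time points placed the rise after lights off. From ZT13 to ZT17 in control retinas, 6 of 10 rose, against 3.32% of genes called in this step and 1.6% called higher. The log2 fold change was 1.02 ± 0.19 (SE) for Sdf2l1 (adjusted p = 0.00092), 0.84 ± 0.12 for Calr (adjusted p = 2.8e-06), 0.78 ± 0.10 for Manf (adjusted p = 1.0e-06), 0.73 ± 0.11 for Hspa5 (adjusted p = 2.1e-05), 0.54 ± 0.094 for Creld2 (adjusted p = 0.00025) and 0.51 ± 0.068 for Hyou1 (adjusted p = 1.7e-06). Hsp90b1 (0.35 ± 0.11, adjusted p = 0.062), Dnajb11 (0.22 ± 0.069, adjusted p = 0.055), Dnajc3 (0.11 ± 0.067) and Canx (0.069 ± 0.084) did not pass. With the GC and length correction 9 of 10 rose in this step, all but Dnajb11, against 3.92% of genes called. Hsp90b1 then had 0.51 ± 0.089 (adjusted p = 0.00017), Dnajc3 0.24 ± 0.064 (adjusted p = 0.021) and Canx 0.23 ± 0.066 (adjusted p = 0.031). Without the 3 lens-rich libraries Dnajb11 passed as well (0.27, adjusted p = 0.023), against 3.1% of genes called. As reported, the median of the 10 was 0.52, against -0.0095 over all genes. The ranges of ZT13 and ZT17 did not overlap for 5 members (Hspa5, Calr, Manf, Sdf2l1 and Hyou1), where 1.79% of all genes were higher without overlap.

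The control levels came down in the morning. From ZT1 to ZT5, 4 of 10 fell, against 0.805% of genes called and 0.34% called lower: Sdf2l1 by 0.94 ± 0.19 on the log2 scale (adjusted p = 0.0043), Hspa5 by 0.52 ± 0.11 (adjusted p = 0.0048), Creld2 by 0.44 ± 0.090 (adjusted p = 0.0063) and Manf by 0.39 ± 0.097 (adjusted p = 0.037). Without the lens-rich library of ZT1 (control replicate 6) the changes of Creld2 (-0.38) and Manf (-0.34) no longer passed (adjusted p = 0.051 and 0.13). Without all 3 lens-rich libraries Creld2 (-0.38) passed (adjusted p = 0.044) and Manf (-0.34) did not (adjusted p = 0.14). With the GC and length correction Hyou1 fell too (-0.20 ± 0.053, adjusted p = 0.040), which made 5 of 10 against 1.52% of genes called and 14 calls over the 60 tests of control steps, where 10 were made without it. No member passed in the other 4 control steps, in which 0 to 143 genes were called, from 0% to 0.748%. From ZT17 to ZT21, 8 of 10 had values below 0, with Manf at -0.42 ± 0.11. Before adjustment 6 had p under 0.05, as 1099 of the 19120 genes had, but no gene of the table passed after adjustment.

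In diabetic retinas, 1 of the 10 was rhythmic after adjustment, against 14.3% of all genes, and 6.98% with a peak in the dark. This was Hyou1, with a relative amplitude of 9.04% ± 2.35 and an acrophase at ZT20.4 ± 1.0 h (adjusted p = 0.021), and it lost the call without diabetic ZT21 replicate 3 (adjusted p = 0.059). Without diabetic ZT9 replicate 3, 2 passed, Hspa5 (adjusted p = 0.038) beside Hyou1. By the rank test 4 of 10 were rhythmic in diabetic retinas, Hspa5, Hsp90b1, Manf and Hyou1, against 23.9% of all genes, and with the GC and length correction 2 of 10, Hsp90b1 and Hyou1, against 19.5%.

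The relative amplitude was smaller in diabetic than in control retinas for 10 of 10 chaperones. The median ratio of diabetic to control amplitude was 0.419, from 0.029 for Dnajc3 to 0.57 for Hyou1. Among the 2337 genes rhythmic in control retinas the median ratio was 0.856, with 66.8% smaller in diabetic retinas, and among all genes tested it was 1.03, with 48% smaller. A gene that is rhythmic in control retinas was chosen partly for a large control amplitude, which lowers the ratio in that group, and in the 8 members in it. Calr went from 24.2% ± 5.0 in control to 7.03% ± 2.90 in diabetic retinas, Hspa5 from 24.6% ± 4.7 to 11.2% ± 3.6, Sdf2l1 from 30.5% ± 7.6 to 9.97% ± 6.20 and Manf from 23.0% ± 4.4 to 8.84% ± 3.71. Acrophases of Hspa5, Hsp90b1, Calr, Manf and Hyou1 lay within 1.18 h of each other between the genotypes, about as far as their errors. For Creld2, Sdf2l1 and Dnajb11 the fitted diabetic peaks moved past lights on, to ZT2.1, ZT0.40 and ZT1.7, with errors of 2.0 to 2.3 h, and none of these 3 was rhythmic in diabetic retinas. For Canx the fitted peak was earlier, ZT19.3 ± 3.0 h in diabetic against ZT22.7 ± 1.4 h in control retinas. Canx passed the cosine test in neither genotype.

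The difference in rhythm between the genotypes, tested as such, passed for 0 of 10 in edgeR, and also for 0 of the 19120 genes (0%). Before adjustment 6 of the 10 were under 0.05, as 657 of all genes were. Creld2 and Calr had the smallest unadjusted values, 0.0054 and 0.0078, and after adjustment all 10 stood at 1.00. DESeq2 called 0 of 10 too. A rhythm that passed in control and not in diabetic retinas was thus not shown to differ between them after adjustment. The study used another test, only on genes it found cycling in either genotype, and reported genes with a different rhythm. Among them, those with a reduced amplitude in diabetes were reported as enriched in ER stress and the unfolded protein response. For the amplitude changes the study also named HSP90B1, with others, as a predicted upstream regulator.

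**Figure D3:**
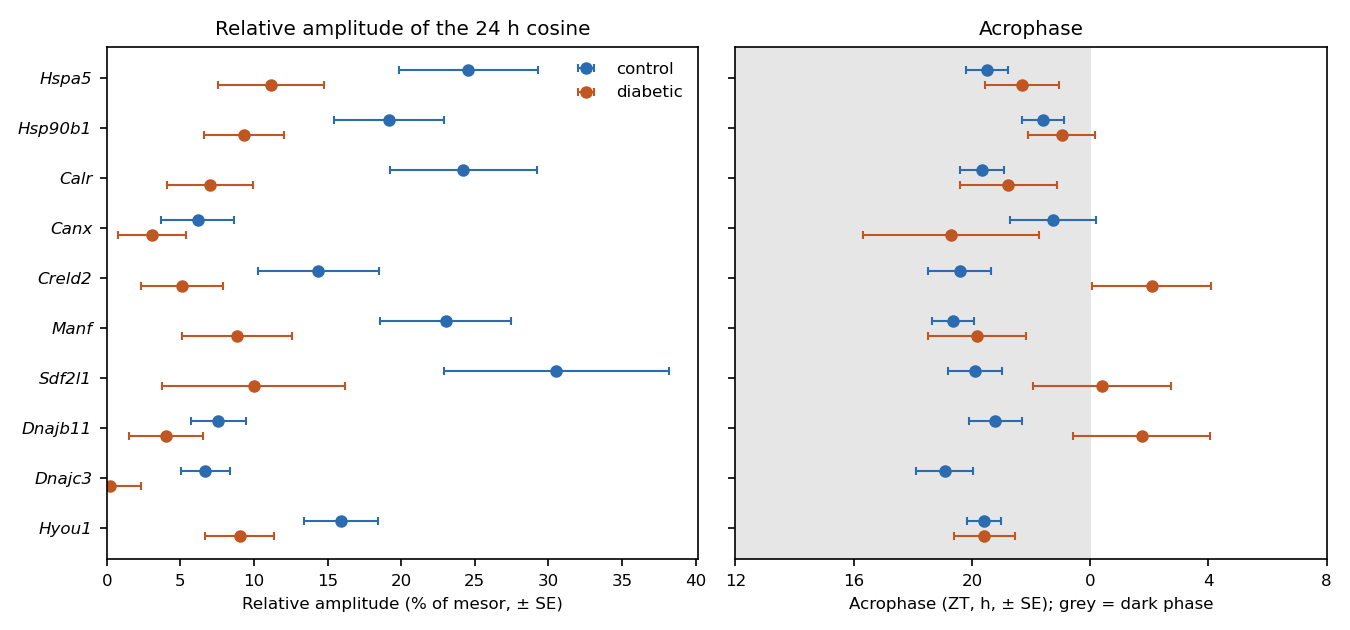
Relative amplitude of the fitted 24 h cosine (left, % of the mean level) and acrophase (right, ZT in h) of each chaperone in control (blue) and diabetic (orange) retinas, with SE as bars. The amplitude point of diabetic retinas lies left of the control point for 10 of 10, and the acrophase of Dnajc3 in diabetic retinas is left out because its error was 44.4 h at an amplitude of 0.19%.

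Averaged over the 6 time points with equal weight, 6 of 10 chaperones were lower in diabetic retinas, against 4.64% of all genes called and 2.25% called lower. The log2 difference was -0.26 ± 0.049 for Calr (adjusted p = 0.00055), -0.21 ± 0.040 for Creld2 (adjusted p = 0.00071), -0.20 ± 0.046 for Hspa5 (adjusted p = 0.0067), -0.19 ± 0.047 for Hsp90b1 (adjusted p = 0.0081), -0.14 ± 0.029 for Dnajb11 (adjusted p = 0.0013) and -0.14 ± 0.043 for Manf (adjusted p = 0.041). These are decreases of 9.33% for Manf to 16.3% for Calr. Sdf2l1 (-0.22 ± 0.082), Canx (-0.093 ± 0.035), Hyou1 (-0.086 ± 0.028) and Dnajc3 (-0.072 ± 0.028) did not pass, with adjusted p between 0.066 and 0.14. The median of the 10 was -0.17, against 0.0018 over all genes. Markers of retinal cells also differed between the genotypes in this comparison. Of the rod markers 3 of 10 passed, with a median summed level of 698804 normalized read counts in control and 657267 in diabetic retinas. Of the cone markers 4 of 8 passed (median sums 14032 and 13015), and of the pigment epithelium markers 3 of the 10 tested (2455 and 1778). Their part in the result was not tested.

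With the GC and length correction 9 of 10 were lower, all but Sdf2l1, against 7.85% of genes called. Manf lost its call in 26 of the 58 fits with 1 library left out (adjusted p up to 0.074). In a fit with 1 group per genotype that ignored time, 3 of the 10 passed, Calr, Creld2 and Dnajb11, against 2.99% of genes called.

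By time point, calls were made at ZT17, where 3 of 10 were lower, against 0.167% of genes called and 0.105% called lower. Calr had 5253, 5755, 5866, 6294 and 6669 normalized read counts in the control and 3503, 3822, 3832 and 4317 in the diabetic retinas of ZT17. Every diabetic value lay below every control value, with a log2 difference of -0.63 ± 0.12 (adjusted p = 0.0082). Creld2 had 239.5, 285.8, 306.8, 307.9 and 338.5 in control and 174, 199, 202 and 226 in diabetic retinas, again without overlap (-0.56 ± 0.098, adjusted p = 0.0025). Sdf2l1 had 67.1, 103, 107, 109 and 112 in control and 40.0, 45.5, 65.0 and 65.2 in diabetic retinas (-0.89 ± 0.20, adjusted p = 0.030), so that 1 control retina lay next to the highest diabetic ones. Dnajb11 and Manf did not overlap either but did not pass (-0.31 ± 0.072, adjusted p = 0.051, and -0.42 ± 0.11, adjusted p = 0.068). These 5 members without overlap compare with 1.05% of all genes that were lower without overlap at ZT17.

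Hspa5 at ZT17 had 2316, 2553, 2805 and 2817 normalized read counts in diabetic retinas, which overlapped the lowest control value of 2724 (-0.45 ± 0.12, adjusted p = 0.085). Hsp90b1 (-0.31 ± 0.12), Hyou1 (-0.26 ± 0.071), Dnajc3 (-0.18 ± 0.071) and Canx (-0.055 ± 0.089) did not pass. All 10 values were below 0 at ZT17, with a median of -0.37 against 0.0069 over all genes. The 3 calls rested on few libraries: without diabetic ZT17 replicate 5 none of the 10 passed, with Calr at -0.62 (adjusted p = 0.097), Creld2 at -0.50 (adjusted p = 0.072) and Sdf2l1 at -0.77 (adjusted p = 0.28). Without diabetic ZT17 replicate 3 there were 6 calls over the 60 tests of 10 members at 6 time points, and without control ZT9 replicate 4 there were 5. Without the lens-rich libraries Sdf2l1 had a difference of about the same size, -0.86, that no longer passed (adjusted p = 0.067), and Dnajb11 passed (-0.35, adjusted p = 0.018). Sdf2l1 lost its call in 6 of the 58 fits with 1 library left out. The GC and length correction gave 7 calls over the 60 tests, all at ZT17, where 0.664% of genes were then called. DESeq2 gave 6, and it called 0.571% of genes at ZT17.

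The control retinas of ZT17 are the same 5 that entered the control step from ZT13, so the rise and the difference between genotypes are not independent. At the other time points no member passed, and 0 to 4 genes of the whole table did (0% to 0.0209%). At ZT1, 10 of 10 were below 0 with a median of -0.29, against 0.0072 over all genes. They ran from -0.44 ± 0.11 for Hspa5 to -0.14 ± 0.067 for Dnajc3. At ZT1 and ZT17, 9 each had an unadjusted p under 0.05, as 1051 and 1686 of the 19120 genes had. The values of Hspa5 and Hsp90b1 at ZT1 (-0.44 ± 0.11 and -0.30 ± 0.11) were close in size to those at ZT17, and no test compared the differences at ZT1 and ZT17. Hspa5 at ZT1 had 2733, 3127, 3287, 3367 and 3672 normalized read counts in control and 2068, 2104, 2218, 2715 and 2810 in diabetic retinas. At ZT5 and ZT9 the medians were -0.0063 and 0.035, with 5 and 4 of 10 below 0. At ZT13 and ZT21 they were -0.13 and -0.13, with 9 and 10 of 10 below 0. Over all genes the medians at ZT13 and ZT21 were -0.0018 and -0.0039. Lower diabetic values without overlap were found at ZT1 for Manf and Dnajb11 (0.476% of genes), at ZT5 and ZT21 for Hsp90b1 (0.69% and 1.06% of genes) and at ZT13 for Creld2 (0.439% of genes).

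**Figure D4:**
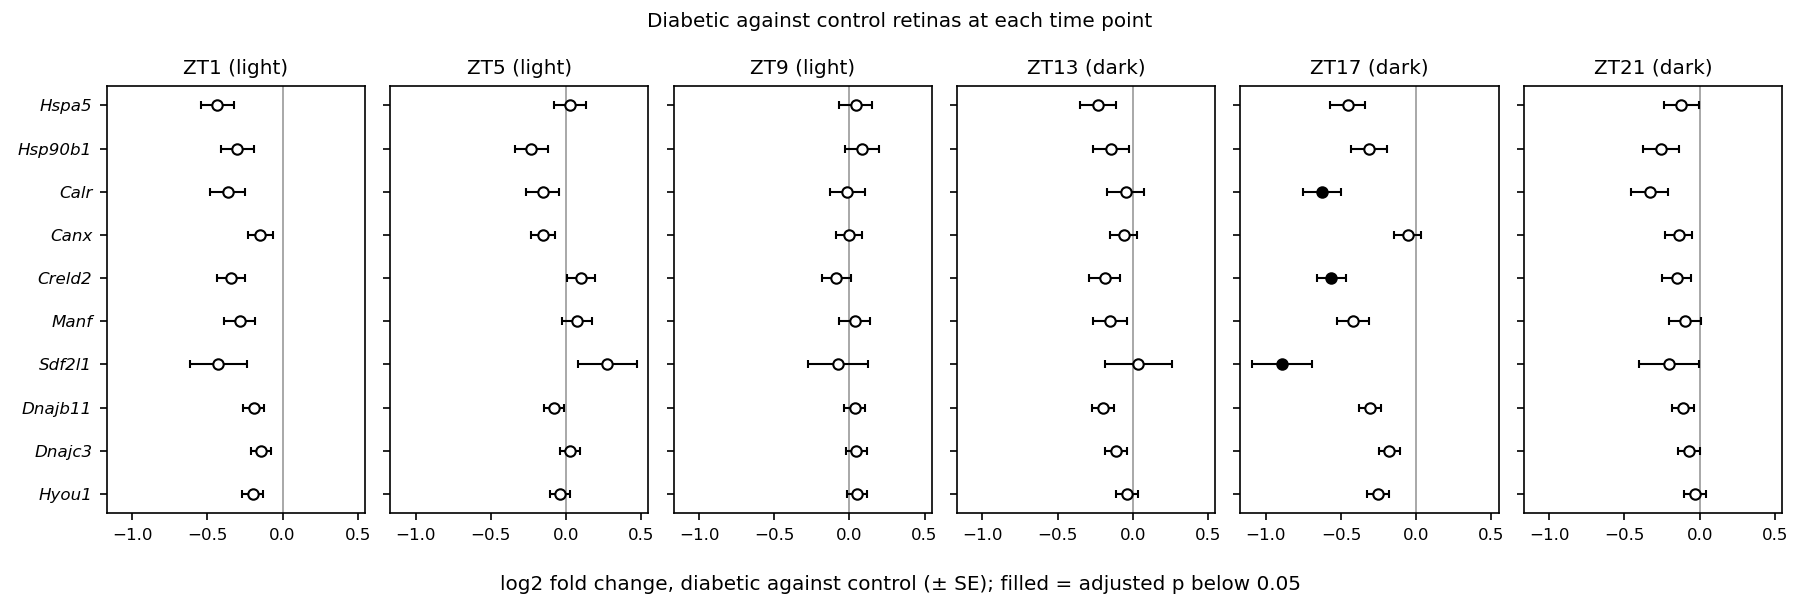
Log2 fold change of diabetic against control retinas (x axis, ± SE) for the 10 ER chaperones at each of the 6 time points, 1 panel each. Filled points passed the test after adjustment, which Calr, Creld2 and Sdf2l1 did at ZT17, and the points of ZT5 and ZT9 lie on both sides of 0.

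Diabetic retinas rose from ZT13 to ZT17 as well, for 3 of 10 chaperones, against 2.06% of genes called and 1.05% called higher. Manf rose by 0.51 ± 0.11 on the log2 scale (adjusted p = 0.0083), Hspa5 by 0.50 ± 0.12 (adjusted p = 0.017) and Hyou1 by 0.29 ± 0.076 (adjusted p = 0.030), and these 3 did not overlap between ZT13 and ZT17, which 3.07% of genes did in the upward direction. Hspa5 had 1521, 1849, 1870 and 2128 normalized read counts in the diabetic retinas of ZT13, the lowest group mean of the 12, and all lay below its 4 values at ZT17. Calr (0.26 ± 0.13), Creld2 (0.16 ± 0.11) and Sdf2l1 (0.094 ± 0.22) did not pass. No member passed in the other 5 diabetic steps, from ZT1 to ZT5 included, in which 0.0105% to 2.79% of genes were called. With the GC and length correction 1 more call was made, 4 over the 60 tests, for Hyou1 from ZT21 to ZT1 (-0.18 ± 0.056, adjusted p = 0.048), where 5.22% of genes were called. The 3 calls fell to 0 without diabetic ZT13 replicate 3, and to 1 each without diabetic ZT13 replicate 5, diabetic ZT17 replicate 3 or diabetic ZT17 replicate 5.

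The difference of the step from ZT13 to ZT17 between the genotypes was -0.93 ± 0.30 for Sdf2l1, -0.58 ± 0.17 for Calr and -0.38 ± 0.14 for Creld2 on the log2 scale, with unadjusted p of 0.0027, 0.0016 and 0.010. None of the 10 passed after adjustment, and 1 gene of the table did (0.00523%). For the morning step from ZT1 to ZT5 the difference was 0.46 ± 0.15 for Hspa5, 0.44 ± 0.13 for Creld2 and 0.70 ± 0.27 for Sdf2l1, and none of 10 passed (0% of genes). These contrasts use the same libraries as those at ZT17 and ZT1 and repeat their information.

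Ordered over the 12 groups of genotype and time point, the highest mean was control ZT17 for 8 chaperones and control ZT21 for Hsp90b1 and Canx. The lowest was diabetic ZT13 for 9 and control ZT5 for Sdf2l1. The highest mean was 2.22 times the lowest for Sdf2l1, 1.95 for Hspa5, 1.92 for Manf, 1.86 for Calr and down to 1.17 for Dnajc3. Neighbours in this order overlapped almost throughout: of the 11 neighbouring pairs, 1 did not overlap for Hsp90b1, Manf and Hyou1 and 0 for the other 7. For Manf this was the gap between control ZT17, with 604 ± 20.9 (SD, n = 5), and the next group, control ZT1, with 462 ± 37.8 (n = 5).

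The enzymes of oxidative folding work beside the chaperones and form disulfide bonds. Of 16 genes on that list, 3 were lower in diabetic retinas over all time points: Pdia6 (-0.22 ± 0.031, adjusted p = 5.4e-06), Pdia5 (-0.20 ± 0.031, adjusted p = 3.1e-05) and Pdia3 (-0.17 ± 0.041, adjusted p = 0.0062), the last being the isomerase that binds Calr and Canx. The median of the list was -0.050 on the log2 scale. At ZT17, 2 of 16 were lower, Pdia6 (-0.46 ± 0.079, adjusted p = 0.0025) and Pdia5 (-0.42 ± 0.079, adjusted p = 0.0060). In control retinas 3 of 16 were rhythmic with a peak in the dark, Pdia6, Pdia3 and P4hb, and in diabetic retinas 1 of 16 was, Txndc12. Of all genes, 5.96% and 6.98% were rhythmic with a peak in the dark in control and diabetic retinas. In diabetic against control retinas 2.25% of all genes were lower over all time points, and 0.105% at ZT17. From ZT13 to ZT17, 3 of 16 were higher in control retinas: Pdia6 (0.46 ± 0.075, adjusted p = 7.1e-05), Pdia4 (0.35 ± 0.084, adjusted p = 0.011) and Pdia3 (0.41 ± 0.097, adjusted p = 0.012). In diabetic retinas 1 of 16 was, Pdia4 (0.34 ± 0.094, adjusted p = 0.042). In this step 1.6% of all genes were higher in control and 1.05% in diabetic retinas.

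Among 29 other ER folding factors, 1 was lower in diabetic retinas over all time points, Creld1 (-0.14 ± 0.040, adjusted p = 0.031), the relative of Creld2. Of these 29, 6 were rhythmic in control retinas, 3 with a peak in the dark (Serpinh1, the collagen chaperone, and Creld1 had the smallest adjusted p of these) and 3 in the light, and 4 in diabetic retinas. Cdnf, the relative of Manf, was one of those with a peak in the light, at ZT7.6. The shares among all genes were 12.2% rhythmic in control retinas, 14.3% rhythmic in diabetic retinas and 2.25% lower over all time points. From ZT13 to ZT17 in control retinas 3 of 29 were higher, where 1.6% of all genes were, and 14 of 29 had values below 0, with a list median of 0.0072.

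Of 28 sensors of the unfolded protein response and genes of ER-associated degradation, 7 were rhythmic in control retinas, 4 in the dark and 3 in the light. Xbp1, whose spliced form encodes a regulator of chaperone genes, had the smallest adjusted p (7.6e-09) and a relative amplitude of 29.0% with an acrophase at ZT19.6. Its symbol count does not separate spliced from unspliced RNA. Xbp1 rose by 0.69 ± 0.092 from ZT13 to ZT17 in control (adjusted p = 1.6e-06) and by 0.47 ± 0.10 in diabetic retinas (adjusted p = 0.0069), where it was rhythmic as well (relative amplitude 15.4%, adjusted p = 0.0033). From ZT1 to ZT5 Xbp1 was lower in control retinas (-0.68 ± 0.088, adjusted p = 3.2e-06), where 0.34% of all genes were. Over all time points 1 of 28 was lower in diabetic retinas, Sel1l, the adaptor of the degradation ligase (-0.062 ± 0.016, adjusted p = 0.017). Among all genes 12.2% were rhythmic in control retinas and 2.25% were lower in diabetic retinas over all time points.

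The 20 targets of Atf4 and Chop, which belong to the Eif2ak3 arm, had a median of 0.020 in diabetic against control retinas, and 1 was lower, Phgdh of serine synthesis (-0.36 ± 0.10, adjusted p = 0.030). In control retinas 3 of 20 were rhythmic (Ddit4, Psat1 and Ppp1r15a), all in the dark, and in diabetic retinas 2 were (Ppp1r15a and Trib3). For comparison, the cosine test called 12.2% of all genes in the control group and 14.3% in the diabetic group. Counting peaks in the dark alone, these shares were 5.96% and 6.98%. Of 21 cytosolic heat shock genes, 8 were rhythmic in control retinas, all in the dark, led by Hsp90aa1 (acrophase ZT19.9), Hspa8 and Cryab, and 2 in diabetic retinas, Hsp90aa1 and Hspa8. Cryab is also a lens crystallin, and the 3 lens-rich libraries are all control libraries. Its results without these libraries were not tested. From ZT13 to ZT17, 7 of 21 were higher in control and 5 of 21 in diabetic retinas, against 1.6% and 1.05% of all genes. From ZT1 to ZT5, 4 of 21 were lower in control retinas, against 0.34% of all genes. The smallest adjusted p were those of Hsph1 (-0.41 ± 0.096, adjusted p = 0.025), Hspa1a (-0.43 ± 0.11, adjusted p = 0.034) and Cryab (-2.54 ± 0.65, adjusted p = 0.038). Over all time points 2 of 21 were lower in diabetic retinas, Cryab (-1.02 ± 0.28, adjusted p = 0.025) and Hsph1 (-0.15 ± 0.042, adjusted p = 0.026), with a list median of -0.074. The share lower among all genes was 2.25%.

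**Figure D5:**
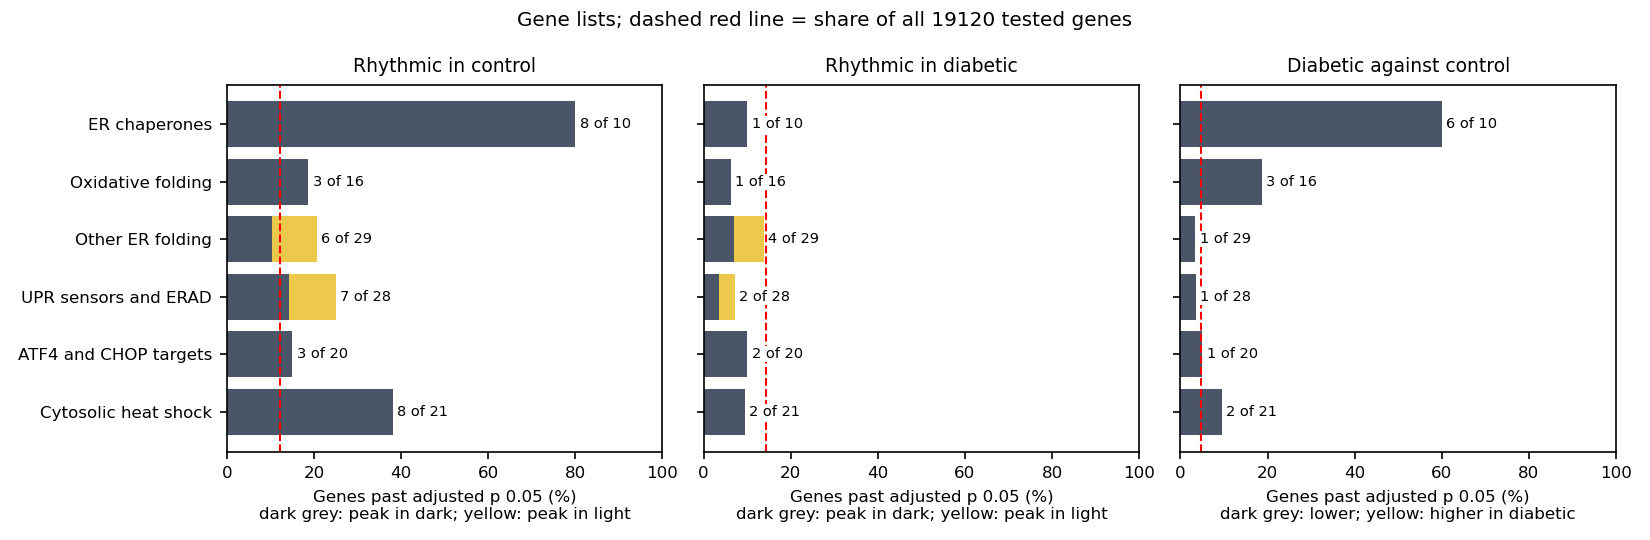
Share of genes past an adjusted p of 0.05 (x axis, %) in the ER chaperones and 5 related lists, for rhythm in control retinas, rhythm in diabetic retinas and the difference between genotypes over all time points, with the count beside each bar. Dark grey marks a peak in the dark or a lower level in diabetic retinas, yellow a peak in the light, and the dashed red line the share of all 19120 genes tested.

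The transcripts that moved with Hspa5 from library to library were taken from all genes tested, on log2 CPM (reads scaled to a common library total) with the mean of each group of genotype and time point removed. Over the 58 libraries the 10 highest Pearson correlations, with Spearman's rho in second place, were those of Pdia3 (0.80 and 0.75), Mtmr4 (0.78 and 0.75), Hsp90aa1 (0.77 and 0.76), Hspa4 (0.75 and 0.68), Hspd1 (0.73 and 0.69), Tspyl1 (0.73 and 0.68), Hnrnpul2 (0.73 and 0.73), Pdia6 (0.72 and 0.69), Rap1gds1 (0.72 and 0.73) and Ube2b (0.72 and 0.67). None of the other 9 chaperones was among these 10. Hsp90b1 came 41st of 19119 genes with 0.64, Canx 138th with 0.57 and Hyou1 225th with 0.54, while Calr came 2899th with 0.26. Each library has 1 depth and 1 GC trend for all its genes. The library GC trend correlated at -0.14 with Hspa5, -0.58 with Hsp90b1, -0.63 with Canx and -0.46 with Dnajc3. It correlated at 0.70 with Calr, 0.68 with Manf, 0.60 with Hyou1, 0.45 with Creld2 and Dnajb11, and 0.42 with Sdf2l1. The part of depth and GC trend in the correlations with Hspa5 was not tested.

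The other genes with the ERSE letters moved in both directions. Outside the 10 chaperones 31 genes held these letters, of which 15 were tested, a list made with these results known. In control retinas 5 of these 15 were rhythmic, Pdia6 and Derl3 with a peak in the dark and Tdrd9, Gm20560 and Zfp57 with a peak in the light. Over all time points 2 were lower (Pdia6 and Alg12) and 3 higher (Tdrd9, Acacb and Zfp57) in diabetic retinas, with a list median of 0.062. Among all genes 2.25% were lower and 2.4% higher, and 12.2% were rhythmic in control retinas. Of the 2 tested chaperone genes with a promoter entry but without the full letters, Sdf2l1 had the largest amplitude of the 10 and Dnajb11 one of the smallest.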

How the data were processed

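The authors deposited raw read counts per gene: they aligned reads with STAR (2.7.4a) to GRCm38.p5 with Gencode M15 and counted with HTSeq (0.11.1), per the labels and methods. The counts were used unfiltered as deposited, 52459 symbols in 58 libraries of 7773117 to 22147398 reads. The strand setting is not given in the sources used here. Libraries were grouped by genotype and time point from their titles, 0 columns lacked a sample, and the p-values measure the spread between these single retinas.

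Levels are counts divided by DESeq2 (1.42.0) size factors. Genes with a median above 4 such counts were tested with edgeR (4.0.16, R 4.3.3), quasi-likelihood F test, TMM factors, Benjamini-Hochberg threshold 0.05 over 19120 genes. Rhythm was a 24 h cosine and sine for each genotype. Levels were compared in 1 fit of 12 groups. Amplitude and acrophase are least-squares fits with delta-method errors. Alternatives were another scaling, 2 other filters, DESeq2, a replicate block, a rank test with 200000 shuffled series, libraries or time points left out and, added after seeing the data, a GC and length correction on 18377 genes, the step differences and leaving out the 3 lens-rich libraries. The edgeR fits were tested on simulated data.

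The members and lists were chosen with earlier results of these data known. All 10 members are named, and at most 3 genes of each other list per comparison, those with the smallest adjusted p past 0.05, plus the 10 most like Hspa5. The genes with ERSE letters, and Cdnf, were named after their values were seen. Replicate numbers were checked for pairing in 26 genotype pairs. The correlation of deviations ran from -0.22 to 0.58 with a median of 0.126, and 15 were above 0.1. They were not taken as pairs, and what libraries of the same number have in common was not tested. With a replicate block 15.9% of genes were rhythmic in control retinas, against 12.2% without it. From ZT13 to ZT17 in control retinas 7.78% were called with it, against 3.32%. Each of 113 replicate pairs differed by more than sampling noise (chi-square per degree of freedom at least 1.86).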

Additional observations from a re-analysis of the deposited data

Results flagged for a closer look

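Of 120 sets of a chaperone in a group of genotype and time point, 4 held a library far from the others by Dixon's test, where chance gives about 1 in 20. Calr had 4117 normalized read counts in diabetic ZT1 replicate 4, with the nearest other library at 3482. Manf had 442.8 in diabetic ZT5 replicate 4, with the nearest at 356. Dnajb11 had 809.6 in control ZT1 replicate 6, a lens-rich library, with the nearest at 704. Sdf2l1 had 67.1 in control ZT17 replicate 1, below the nearest at 103, which lowers the control mean at the time point where Sdf2l1 was called lower in diabetic retinas. The 4 flags fall on 4 different libraries and 4 different chaperones.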

How the results depend on the processing

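The number of chaperones called was counted again under each alternative. Rhythm in control retinas, 8 of 10 as reported, fell to 5 without the libraries of ZT17, where the share of all genes called fell from 12.2% to 3.96%, was 10 with the GC and length correction, and lay between 7 and 9 with 1 library left out. Rhythm in diabetic retinas, 1 of 10, was 0 without the libraries of ZT5 or of ZT21, 2 without those of ZT9 and with the GC and length correction, 4 by the rank test, and 0 to 2 with 1 library left out. The share of all genes called was 14.3% as reported, and 11.6%, 8.1% and 9.42% without ZT5, ZT21 and ZT9. It was 19.5% with the GC and length correction and 23.9% by the rank test. The difference in rhythm was 0 under every alternative run, from 0 to 0 with 1 library left out. The difference between genotypes over all time points, 6 of 10, was 3 with 1 group per genotype, 9 with the GC and length correction and 5 to 7 with 1 library left out. Of all genes, 4.64% were called as reported, 2.99% with 1 group per genotype and 7.85% with the correction. The difference at each time point, 3 of 60, was 6 with DESeq2, 5 with the replicate block, 7 with the GC and length correction, and 0 to 6 with 1 library left out. At ZT17 the share of all genes called was 0.167% as reported. It was 0.571% with DESeq2, 0.314% with the block and 0.664% with the correction. The control steps, 10 of 60, lay between 8 and 12 and the diabetic steps, 3 of 60, between 0 and 3 with 1 library left out, and the GC and length correction gave 14 and 4. With the replicate block, whose numbers were not taken as pairs, 9 control and 1 diabetic rhythm were called, 6 chaperones differed over all time points, and 12 control and 3 diabetic steps were called. Of all genes, the block fit called 15.9% and 16% rhythmic in control and diabetic retinas, and 4.74% different over all time points. Signs turned for values that were never called: Canx from ZT1 to ZT5 in control retinas (0.020 as reported) was -0.044 with the GC and length correction and -0.051 (without control ZT1 replicate 4) to 0.060 with 1 library left out, and Dnajb11 in the same step (-0.032) was 0.015 without the lens-rich libraries and -0.053 to 0.015 (without control ZT1 replicate 6) with 1 library left out. From ZT13 to ZT17 in diabetic retinas, Sdf2l1 (0.094) was -0.0085, -0.017 and -0.0071 without diabetic ZT17 replicate 1, ZT13 replicate 3 and ZT17 replicate 3, with 0.21 as the highest, and Dnajc3 (0.039) was -0.027 (without diabetic ZT13 replicate 5) to 0.093. The amplitude was smaller in diabetic retinas for 10 of 10 also on CPM and on log2 CPM. The cause of these changes was not tested. Groups of 4 to 6 retinas and the low counts of Sdf2l1 limit the precision at single time points.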
